A study of Mus musculus with 6 samples.

Results

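Naive and core pluripotency transcription factors are described here in mouse embryonic stem cells that received a short hairpin RNA against Chd8, an ATP-dependent chromatin remodeller of the CHD family. The members were a fixed list of 10 genes, namely Pou5f1, Sox2, Nanog, Klf2, Klf4, Klf5, Esrrb, Zfp42, Tbx3 and Tfcp2l1, and every probe whose platform symbol, old or current, was a listed gene was taken. All 10 genes had a probe, and 20 of the 45281 probes of the array belonged to them. Probes entered the test if 3 or more of the 6 arrays gave a detection p-value below 0.01, which held for 18 of the 20 probes and for 1 or more probes of each of the 10 genes. In the whole series 16732 probes of 9711 named genes were tested.

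Transcripts were measured on Illumina bead arrays, with 3 arrays of control cells and 3 arrays of shChd8 cells. Both groups were grown with LIF (leukemia inhibitory factor) and 15% foetal bovine serum on mouse embryonic fibroblasts inactivated with mitomycin C, and both were electroporated with a pHYPER shRNA vector. Puromycin was added 24 h after transfection and kept for 48 h in both groups, so that the stated schedule of drug selection is shared. Whether equally many cells survived it in both groups was not examined. The content of the control vector and the genotype and strain of the cells are not stated in the sources used here, and the labels name 1 hairpin construct with no rescue, so effects of the hairpin outside Chd8 cannot be told apart from those of less Chd8. All arrays lay on 1 slide, where each group occupied neighbouring positions, so an effect of position cannot be told apart from that of the hairpin. Nothing in the labels ties the arrays to separate cultures, and the p-values below therefore rest on the spread among these 6 samples alone, part of which may be technical. RNA of the feeder cells may be part of each sample, and how much was not measured. Fewer stem cells cannot be told apart from less RNA per stem cell.

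Embryonic stem cells keep their identity through a network of transcription factors that bind each other's genes. Pou5f1 (Oct4) and Sox2 bind side by side at composite DNA elements, and Nanog joins them at many enhancers. Klf2, Klf4, Klf5, Esrrb, Tbx3, Tfcp2l1 and Zfp42 (Rex1) are associated with the naive state, in which LIF acts through Stat3 to keep several of them on. In mouse embryos, most of the naive group are switched off as the epiblast matures after implantation, whereas Pou5f1 and Sox2 remain on.

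The promoter windows are shown because their genes belong to the list and hold letters that the Pou5f1 protein, alone or beside Sox2, is known to bind. RefSeq promoter windows (GRCm38.p6) were available for 8 of the 10 genes, and the 250 bases before each annotated start were searched on both strands. Several windows per gene gave 11 windows in all. The OCT-SOX composite element, searched as CATTGT and ATGCAAA with 1 free base between them, was found in 2 of 32851 promoter windows (0.00609%), and both were overlapping windows of Nanog. The octamer ATGCAAAT was found in 1.6% of all windows and in that of Zfp42. Its 7-letter core ATGCAAA, which lies within both of these motifs, was found in 4.12% of all windows and in those of Nanog, Sox2 and Zfp42. The Esrrb motif TCAAGGTCA (0.387% of all windows) and the Tfcp2l1 motif, a repeat of CCAG with 6 free bases between the copies (2.78%), were found in none of the 11, and the GC box GGGCGGGG (16.1%), a letter pattern that KLF and SP proteins bind, was found in windows of Klf2, Klf4, Pou5f1, Sox2 and Zfp42. These matches describe letters and were chosen with the windows in view. The sequences are printed on the strand of the gene, 5′ to 3′, with the match in capitals: the OCT-SOX element on the opposite strand for Nanog (chr6:122707315-122707564, plus strand), the octamer on the opposite strand for Zfp42 (chr8:43307010-43307259, minus strand) and the 7-letter core on the strand of the gene for Sox2 (chr3:34649745-34649994, plus strand).
Nanog: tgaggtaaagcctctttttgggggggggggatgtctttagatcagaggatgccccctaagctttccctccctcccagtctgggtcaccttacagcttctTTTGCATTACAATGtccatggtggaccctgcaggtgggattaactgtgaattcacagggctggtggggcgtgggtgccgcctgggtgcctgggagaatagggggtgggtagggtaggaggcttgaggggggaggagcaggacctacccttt
Zfp42: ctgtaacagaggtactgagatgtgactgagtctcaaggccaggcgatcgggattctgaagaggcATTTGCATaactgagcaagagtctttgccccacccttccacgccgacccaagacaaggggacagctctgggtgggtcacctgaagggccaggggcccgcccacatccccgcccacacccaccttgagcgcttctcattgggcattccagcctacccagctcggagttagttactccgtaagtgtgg
Sox2: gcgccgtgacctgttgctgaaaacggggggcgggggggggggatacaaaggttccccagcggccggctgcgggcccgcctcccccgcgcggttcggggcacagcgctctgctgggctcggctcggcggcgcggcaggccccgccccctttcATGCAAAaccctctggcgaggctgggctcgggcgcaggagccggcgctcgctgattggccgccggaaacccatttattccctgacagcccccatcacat

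Before normalization the mean intensity per array lay between 389.9 and 497.5, and between 16482 and 17440 probes were detected. Chd8 itself was checked first. Its detected probe, ILMN_2703082, read 9.90, 9.97 and 10.02 in control and 8.71, 8.64 and 8.36 in shChd8 cells on the normalized log2 scale. The groups did not overlap, and Chd8 fell by 1.39 on the log2 scale (SE 0.15), to 38.1% of control (limma adjusted p = 0.00907). Limma with Benjamini-Hochberg adjustment over all tested probes called 615 of the 16732 probes at an adjusted p under 0.05, which is 3.68%, with 260 higher and 355 lower. Counted as genes with at least 1 called probe, 502 of 9711 were called, or 5.17%.

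The comparison of shChd8 with control cells asks which transcripts differ when Chd8 is reduced. Among the pluripotency factors, 0 of 10 genes and 0 of 18 tested probes were called, against the 5.17% of genes and 3.68% of probes called overall. The number of these genes at an unadjusted p under 0.05 was also 0, where 25.7% of all tested probes passed, and the unmoderated and the trended test called 0 as well. The lowest limma adjusted p of the 18 probes was 0.373. The groups overlapped for every one of the 18 probes, while they were apart for 30.2% of all tested probes. On the brightest tested probe of each gene, 4 log2 changes were above 0 and 6 below, from -0.18 for Tbx3 to 0.27 for Klf4, with a median of -0.03 beside -0.02 for all 9711 genes. With 3 arrays in each group the exact two-sided permutation test of a single probe cannot go below 0.1, and its values for the brightest probes ran from 0.2 for Klf4 to 1 for Pou5f1.

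**Figure D1:**
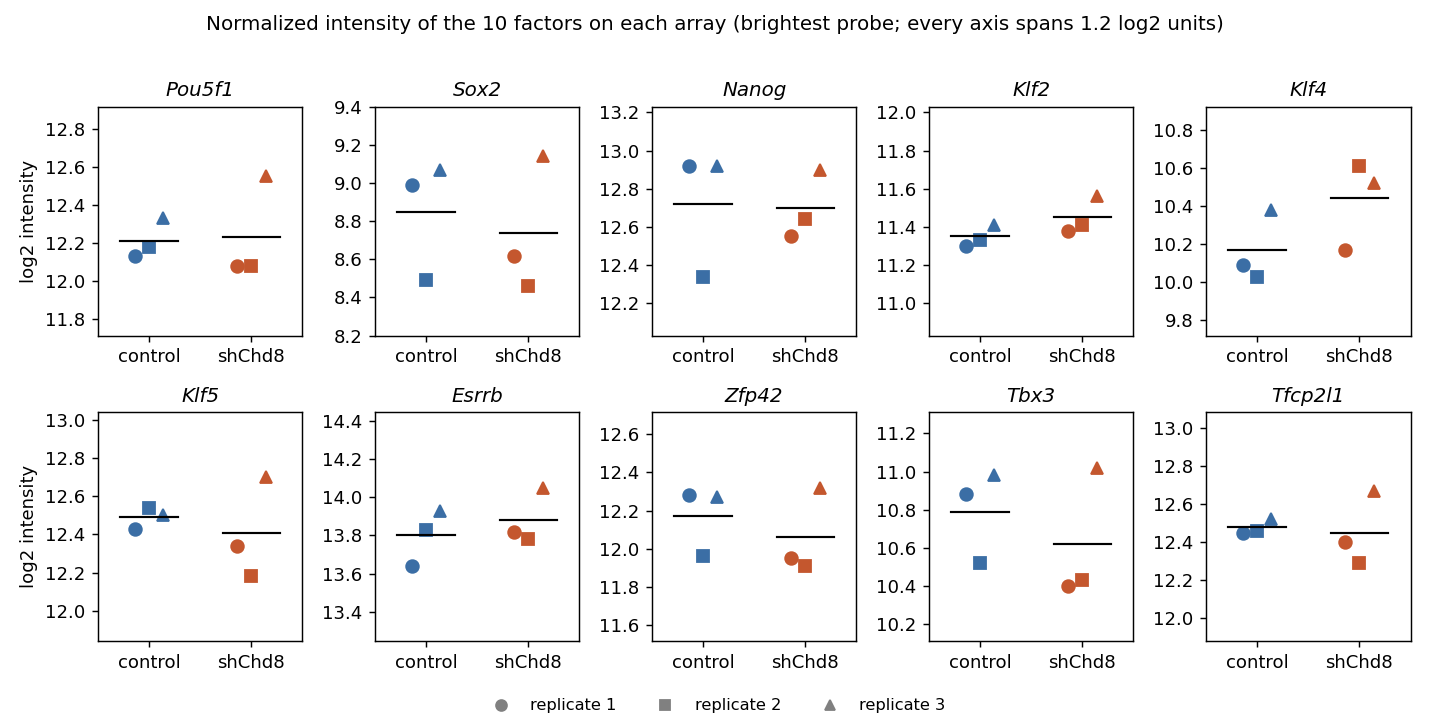
Normalized log2 intensity of the brightest probe of each of the 10 factors on the 3 control arrays (blue) and the 3 shChd8 arrays (orange). Marker shapes give the replicate number, which pairs nothing, and black lines give group means. The groups overlap in every panel, and shChd8 replicate 3 (orange triangle) is the highest of the 6 arrays in 8 of the 10 panels.

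Pou5f1, the POU-domain factor without which no pluripotent cells form in the mouse embryo, had log2 intensities of 12.13, 12.18 and 12.33 in control and of 12.08, 12.08 and 12.55 in shChd8 cells on its brighter probe (ILMN_1252910). Both the lowest values and the highest value were on shChd8 arrays. The log2 change was 0.02 (SE 0.18), which is 101.5% of control with a 95% interval from 76.7% to 134.3% (limma adjusted p = 0.955). Its other probe (ILMN_1217100) had means of 11.82 ± 0.21 in control and 11.83 ± 0.21 in shChd8 cells (SD, n = 3 each) and a log2 change of 0.01. RefSeq lists pseudogenes of Pou5f1, Nanog and Zfp42, and the probes of these genes may bind RNA of such copies where it exists, so their values are uncertain in that respect.

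Sox2, the HMG-box partner of Pou5f1, had log2 intensities of 8.99, 8.49 and 9.07 in control and of 8.62, 8.46 and 9.14 in shChd8 cells on its brighter probe (ILMN_2656102). Control replicate 2 lay with the lower shChd8 arrays, and shChd8 replicate 3 lay with the higher control arrays. The log2 change was -0.11 (SE 0.23), or 92.7% of control with a 95% interval from 64.3% to 133.5% (limma adjusted p = 0.8). The dimmer probe (ILMN_1248711) had a log2 change of -0.06 (SE 0.27).

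Nanog, the homeobox factor whose promoter holds the OCT-SOX element shown above, had log2 intensities of 12.92, 12.34 and 12.92 in control and of 12.55, 12.64 and 12.90 in shChd8 cells on its brighter probe (ILMN_2706623). The lowest value was that of control replicate 2, and all 3 shChd8 values lay within the range of the control values. On this probe the log2 change was -0.03 (SE 0.20), or 98.1% of control with a 95% interval from 71.5% to 134.6% (limma adjusted p = 0.949). The other Nanog probe (ILMN_1245732) read 11.39, 10.95 and 11.42 in control against 11.04, 10.72 and 11.13 in shChd8 cells, and its log2 change of -0.29 (SE 0.19) had the lowest p of the 18 probes (limma adjusted p = 0.373). The 2 Nanog probes had the same sign and differed in size.

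Among the Krüppel-like zinc-finger factors, Klf2, which in mouse stem cells is known as a direct target of Pou5f1, varied least. Its log2 intensities were 11.30, 11.33 and 11.41 in control and 11.38, 11.41 and 11.56 in shChd8 cells (ILMN_2604029), so that the groups overlapped by a narrow margin. Its log2 change was 0.10 (SE 0.14), or 107.1% of control with a 95% interval from 85.7% to 133.8% (limma adjusted p = 0.698).

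Klf4, a target of LIF and Stat3 signalling and also a factor of fibroblasts and epithelia, had the highest log2 change of the brightest probes. Its brightest probe (ILMN_2999439) read 10.09, 10.03 and 10.38 in control and 10.17, 10.61 and 10.52 in shChd8 cells. The values of shChd8 replicates 2 and 3 lay above all control arrays and that of replicate 1 lay below control replicate 3. The log2 change was 0.27 (SE 0.18), or 120.4% of control with a 95% interval from 90.9% to 159.5% (limma adjusted p = 0.379). The other Klf4 probes had log2 changes of 0.01 (SE 0.16, ILMN_1221264) and -0.05 (SE 0.19, ILMN_1241903).

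Klf5, which in the early mouse embryo supports both the inner cell mass and the trophectoderm, read 12.43, 12.54 and 12.50 in control and 12.34, 12.18 and 12.70 in shChd8 cells (ILMN_1253387). The control arrays lay within 0.11 of each other, and the shChd8 arrays spanned 0.52, with values on either side of all control values. Klf5 had a log2 change of -0.08 (SE 0.17), or 94.6% of control with a 95% interval from 72.0% to 124.2% (limma adjusted p = 0.805). A second Klf5 probe (ILMN_2433293) was detected on 0 of the 6 arrays and was not tested.

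Esrrb, an orphan nuclear receptor of the naive network, had a non-normalized intensity between 12151.3 and 19694.6. Its log2 values were 13.64, 13.83 and 13.93 in control and 13.82, 13.78 and 14.05 in shChd8 cells (ILMN_1228497). The groups overlapped with a log2 change of 0.09 (SE 0.16), and the level was 106.1% of control with a 95% interval from 82.8% to 136.0% (limma adjusted p = 0.77). The other Esrrb probe (ILMN_2555396) was detected on 1 of the 6 arrays and was not tested.

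Zfp42, a zinc-finger gene long used as a marker of undifferentiated stem cells and the gene with the octamer shown above, read 12.28, 11.96 and 12.27 in control and 11.95, 11.91 and 12.32 in shChd8 cells (ILMN_2961604). Control replicate 2 stood with the lower shChd8 arrays, as for Sox2. The log2 change was -0.11 (SE 0.18), or 92.9% of control with a 95% interval from 70.3% to 122.8% (limma adjusted p = 0.743).

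Tbx3, a T-box factor that acts with Klf4 downstream of LIF in mouse stem cells, was measured by 4 probes. Its brightest probe (ILMN_1247220) read 10.88, 10.52 and 10.98 in control and 10.40, 10.43 and 11.02 in shChd8 cells. Both the lowest values and the highest value were again on shChd8 arrays, and the log2 change was -0.18 (SE 0.21), or 88.6% of control with a 95% interval from 63.1% to 124.3% (limma adjusted p = 0.647). The other probes disagreed in sign, with log2 changes of -0.36 (SE 0.29, ILMN_3139514), -0.03 (SE 0.23, ILMN_3061990) and 0.35 (SE 0.26, ILMN_1228778). The probe at 0.35 is annotated by a different accession from the other 3, and these values span the whole range of the 18 probes.

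Tfcp2l1, a grainyhead-related factor and a target of Stat3, read 12.45, 12.46 and 12.52 in control and 12.40, 12.29 and 12.67 in shChd8 cells (ILMN_2769832). The control arrays lay within 0.08 of each other and the shChd8 arrays spanned 0.38. Tfcp2l1 had a log2 change of -0.02 (SE 0.16), or 98.4% of control with a 95% interval from 76.9% to 125.9% (limma adjusted p = 0.946).

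The intervals bound what could have been missed. A p above the threshold does not show that levels were equal, and the 95% intervals, each for its own probe, ran from 63.1% to 159.5% of control over the brightest probes. All 10 excluded a level of 50% of control or less and a level of 200% or more, and 9 of the 10, all but that of Klf4, excluded 150% or more. Over all 18 probes, 17 excluded 50%, with a bound of 49.1% for the Tbx3 probe ILMN_3139514, and 18 excluded 200%. These limits are those of the fit on group alone after quantile normalization. With the median of feeder fibroblast markers as a covariate 6 of the 10 intervals of the brightest probes reached 200% or more. With median scaling all 10 log2 changes were above 0, up to 0.46 for Klf4 (SE 0.21). Intervals of the fit with median scaling were not examined. The interval of Chd8 itself ran from 29.8% to 48.7%.

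**Figure D2:**
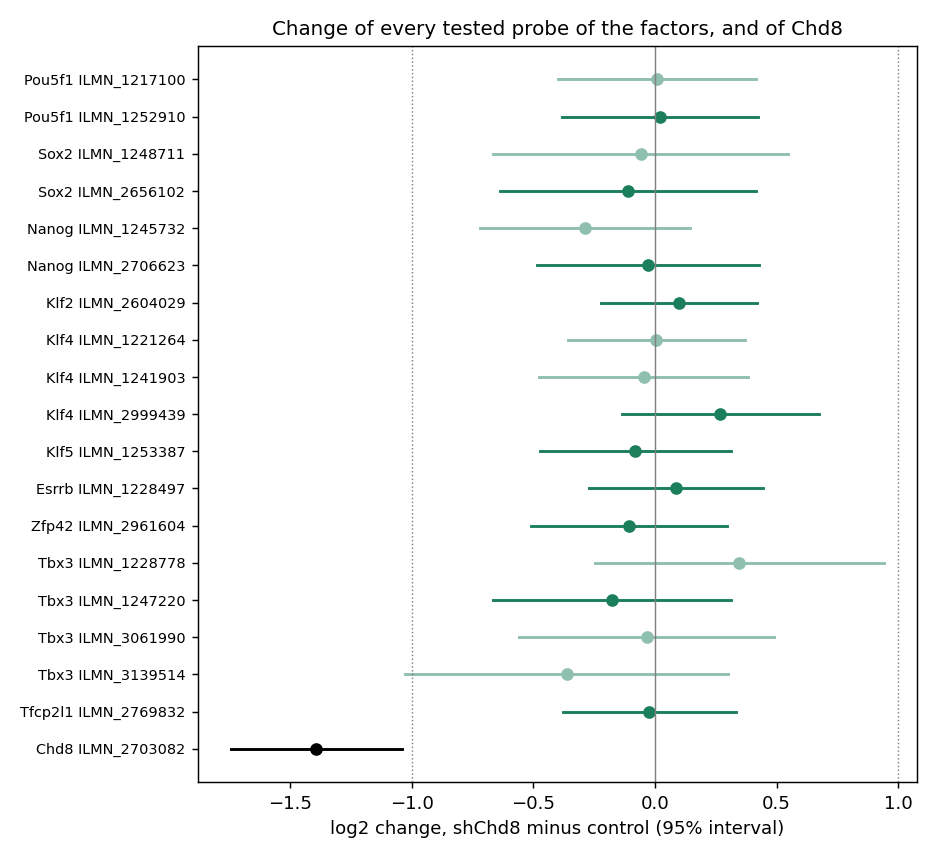
Log2 change (shChd8 minus control) with its 95% limma interval for the 18 tested probes of the factors, and for Chd8 in black. Dark green marks the brightest probe of each gene, light green the others, and dotted lines stand at -1 and 1. All 18 intervals of the factors span 0, whereas that of Chd8 lies below -1.

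For each of the 10 factors the difference between the group means was smaller than the range within either group. shChd8 replicate 3 had the highest value of the 6 arrays for 8 of the 10 factors, all but Nanog and Klf4, whereas it was the highest array for 14.6% of all 9711 genes. It was the highest of the shChd8 arrays for 9 of the 10, against 37.6% of all genes. shChd8 replicate 2 was the lowest of the 6 for 5 of the 10, namely Pou5f1, Sox2, Klf5, Zfp42 and Tfcp2l1, against 16.5% of all genes. Taking each probe's deviation from its own mean over the 6 arrays, the median of the 10 factors came to -0.02, -0.11 and 0.10 for the control arrays and to -0.14, -0.16 and 0.21 for the shChd8 arrays. Within each group replicate 3 was the highest, and the shChd8 values lay on either side of all control values. Without shChd8 replicate 3 the median log2 change was -0.13, with 7 of 10 below 0, and 0 were called.

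The genes whose profiles over the 6 arrays were most like this median were Best1 (Pearson r = 0.995), the histone acetyltransferase gene Kat6b (r = 0.985) and Pdha1, which encodes a subunit of pyruvate dehydrogenase (r = 0.982). These are the highest of all other tested genes over only 6 points that share the 6 arrays, and they are given as a description. Their own log2 changes were -0.02, 0.04 and -0.04, with limma adjusted p values of 0.961, 0.927 and 0.918.

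Of 29 tested markers of the feeder fibroblasts 28 had a log2 change above 0, where 51.8% of all genes were below 0. Their median was 0.93, beside -0.02 for all 9711 genes. The lowest were Thy1 at -0.02, Pdgfrb at 0.21 and S100a4 at 0.22. At an unadjusted p under 0.05 there were 17 higher and 0 lower, where 25.7% of all tested probes passed. Of the 29 markers 2 were called, both higher, beside 1.7% of all genes called higher. Fbln2, a matrix protein, rose by 1.13 (SE 0.22, limma adjusted p = 0.0376). Tagln, which binds actin in contractile cells, rose by 1.06 (SE 0.22, adjusted p = 0.042) and was detected on 2 of 3 control arrays. The number called was 14 with median scaling and 7 without background correction, where 1590 and 823 of all 16732 probes were called higher. It was 0 without control replicate 1, control replicate 3, shChd8 replicate 1 or shChd8 replicate 2. Tagln was also not called without control replicate 2 (adjusted p = 0.0588), and without background correction its log2 change was 0.43 (adjusted p = 0.0369). The summed normalized level of the 29 markers was between 13270 and 22900 on the control arrays and between 27560 and 54460 on the shChd8 arrays, and the collagen genes Col3a1 and Col5a2 and the matrix gene Postn were listed with a probe but did not pass the detection filter. Marker deviations were -0.17, -0.36 and -0.85 in control and 0.90, 0.53 and 0.06 in shChd8 cells. In both groups replicate 3, with the highest median of the pluripotency factors, had the lowest median of the feeder markers.

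A further fit held the median of the feeder markers as a covariate. There the brightest probes of all 10 factors had a log2 change above 0, from 0.20 for Zfp42 to 0.67 for Klf4. Their median was 0.33, beside 0.01 for all probes. The factors share the same arrays and are not separate observations. Of the 18 probes 17 were above 0, the exception being the Nanog probe ILMN_1245732 at -0.12. The number called was again 0 (lowest limma adjusted p = 0.583). At an unadjusted p under 0.05 there were 2 probes, the Klf4 probe ILMN_2999439 at 0.67 (SE 0.28) and the Sox2 probe ILMN_1248711 at 0.79 (SE 0.34). The covariate differs between the groups, and standard errors of the brightest probes were between 0.25 and 0.38 there, against 0.14 to 0.23 without it. The 95% intervals of the brightest probes then ran from 70.0% to 251.3% of control. All 10 still excluded 50% or less, but those of Pou5f1, Sox2, Nanog, Klf4, Esrrb and Tbx3 no longer excluded 200%. That fit called 0 of the 16732 probes, with 1418 at an unadjusted p under 0.05.

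**Figure D3:**
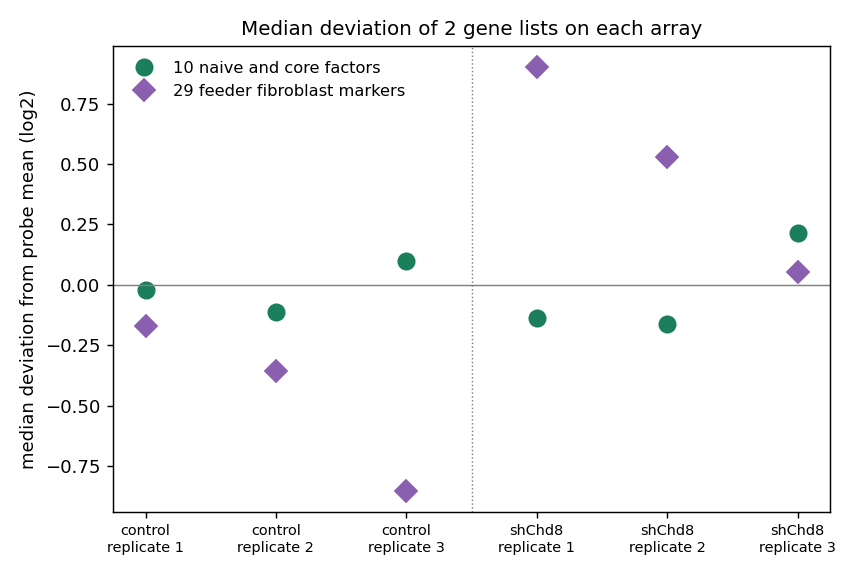
Median deviation from the probe means, in log2 units, of the 10 factors (green circles) and of 29 feeder fibroblast markers (purple diamonds) on each array. The factors lie between -0.16 and 0.21 with the groups overlapping, and the feeder markers lie below 0 on the control arrays and above 0 on the shChd8 arrays.

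Other transcription factors and regulators of the same network had 0 of 21 tested genes called. At an unadjusted p under 0.05 there were 1 higher and 4 lower, where 25.7% of all tested probes passed. Their median log2 change was -0.16, with 16 of 21 below 0, beside 51.8% of all genes (1.7% of all genes were called higher and 2.61% lower on their brightest probe). Gbx2, a homeobox factor that acts downstream of LIF and Stat3, read 11.14, 11.76 and 11.03 in control and 12.36, 12.03 and 12.18 in shChd8 cells, with the groups apart and a log2 change of 0.88 (SE 0.22, limma adjusted p = 0.0583). It was called without control replicate 2 (log2 change 1.10, adjusted p = 0.0283), with median scaling (adjusted p = 0.0229) and without background correction (adjusted p = 0.0154). Lin28a, an RNA-binding protein that blocks maturation of let-7 microRNAs, had a log2 change of -0.95 (SE 0.28, adjusted p = 0.0814), the cell cycle factor Mybl2 of -0.60 (SE 0.18, adjusted p = 0.0839) and the bHLH factor Tcf15 of -0.42 (SE 0.16, adjusted p = 0.152). Without background correction Lin28a (log2 change -0.64, adjusted p = 0.0433) and Mybl2 (-0.58, adjusted p = 0.0251) were called lower, so that the list held 1 higher and 2 lower calls. That fit called 823 of all 16732 probes higher and 905 lower. With median scaling the median of the list was 0.05, beside 0.18 for all probes. With the feeder covariate it was -0.03, with 10 of 21 above 0, and Gbx2 stood at 0.61 (adjusted p = 0.71). Lin28a then stood at -1.06 (adjusted p = 0.62), Mybl2 at -0.46 (adjusted p = 0.732) and Tcf15 at -0.31 (adjusted p = 0.816).

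Of 21 tested targets and markers of the network, 2 fell, 0 rose and 19 had a log2 change below 0, with a median of -0.22, beside 2.61% lower and 1.7% higher calls over all genes. The called genes were Lefty2 and Lefty1, secreted antagonists of Nodal. Lefty2 read 9.58, 9.03 and 9.74 in control and 7.39, 7.78 and 7.63 in shChd8 cells and fell by 1.85 on the log2 scale (SE 0.21, limma adjusted p = 0.0099). Lefty1 fell by 1.07 (SE 0.21, adjusted p = 0.0376), and with the feeder covariate its log2 change was -0.39 (adjusted p = 0.722), against -1.52 (adjusted p = 0.459) for Lefty2. Cdh1, the epithelial cadherin gene, stood at -0.65 (adjusted p = 0.0726), and Tcl1, a coactivator of the kinase Akt, at -0.63 (adjusted p = 0.0928). Without background correction both were called lower (adjusted p = 0.0225 for Cdh1 and 0.0317 for Tcl1). The list then held 4 lower calls and 1 higher call, that of Spred1 (log2 change 0.45, adjusted p = 0.0407). Of all 16732 probes 905 were called lower and 823 higher there. With median scaling the calls were Lefty2 lower and Spred1 higher (0.78, adjusted p = 0.0336), where 212 of all probes were called lower and 1590 higher. Spred1, an inhibitor of Ras and MAP kinase signalling, is named here because of its calls in these 2 fits. With the feeder covariate Cdh1 stood at -0.83 (adjusted p = 0.573) and Tcl1 at -0.10 (adjusted p = 0.948). The median of the list was -0.08 with median scaling and 0.13 with the feeder covariate, where 13 of 21 were above 0.

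Genes of the primed epiblast, the state that follows the naive one, went both ways. Of the 17 listed genes with a probe, Fgf5, Dnmt3a, Lef1, Sox3 and Cer1 did not pass the detection filter. Of the 12 tested, 2 rose and 2 fell, beside 1.7% higher and 2.61% lower calls over all genes. At an unadjusted p under 0.05 there were 4 higher and 2 lower, where 25.7% of all tested probes passed. The median log2 change was 0.34, with 8 of 12 above 0. With median scaling the list held 3 higher and 2 lower calls, where 1590 of all 16732 probes were called higher and 212 lower. The list median was 0.54 in that fit, beside 0.18 for all probes. The added call was Otx2 (0.68, adjusted p = 0.031), at 0.44 in the main fit (limma adjusted p = 0.114). The list median was 0.18 with the feeder covariate. Sox4, an HMG-box factor also active in neural and mesenchymal cells, rose by 0.81 (SE 0.16, limma adjusted p = 0.0376), and the zinc-finger factor Zfp521 rose by 1.14 (SE 0.22, adjusted p = 0.0376). The tight-junction gene Cldn6 fell by 1.48 (SE 0.19, adjusted p = 0.0135), and Fgf15 fell by 0.90 (SE 0.16, adjusted p = 0.0347). Beside the rises of Sox4 and Zfp521 stood the feeder markers, also higher in shChd8 cells, and a link was not tested. With the feeder median as a covariate the log2 changes were 0.87 (adjusted p = 0.53) for Sox4 and 0.75 (adjusted p = 0.636) for Zfp521. Those of Cldn6 and Fgf15 were -1.05 and -1.03 there (both adjusted p = 0.491). Of the genes named in these lists, 0 were called without control replicate 1 or without shChd8 replicate 1, and only Lefty2 was called without control replicate 3 or without shChd8 replicate 2. The number of all called probes was 13 to 39 in these 4 fits. Zfp521 was also not called without control replicate 2 (adjusted p = 0.0525), nor Sox4 (0.055) and Fgf15 (0.0521) without shChd8 replicate 3, nor Lefty1 with median scaling (0.0502), nor Fgf15 without background correction (0.0628). Without background correction the log2 change was -0.32 for Fgf15 and 0.46 for Zfp521.

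Of 7 tested genes of germ layers and trophectoderm 0 were called, and the median log2 change was -0.06. At an unadjusted p under 0.05 there were 2 lower, where 25.7% of all tested probes passed. The organizer factor Gsc had a log2 change of -0.50 (limma adjusted p = 0.101), the simple keratin Krt8 of -0.49 (adjusted p = 0.191), the endoderm factor Gata6 of 0.41 (adjusted p = 0.307) and the intermediate filament gene Nes of 0.42 (adjusted p = 0.411). With the feeder covariate Gsc stood at -0.71 (adjusted p = 0.574) and Krt8 at -0.91 (adjusted p = 0.581). Gata6 stood at 0.38 (adjusted p = 0.854) and Nes at -0.47 (adjusted p = 0.79) in that fit. The other 9 of the 16 listed genes with a probe did not pass the detection filter.

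Of the other KLF genes 7 of 14 were tested and 0 were called, and the median log2 change was -0.05. At an unadjusted p under 0.05 there was 1 higher, where 25.7% of all tested probes passed. Klf6, an immediate-early factor of many tissues, read 9.50, 9.99 and 9.25 in control and 10.20, 10.50 and 10.11 in shChd8 cells. Its groups did not overlap, and its log2 change was 0.69 (SE 0.21, limma adjusted p = 0.0972). Klf16, Klf13 and Klf9 had log2 changes of -0.35, -0.33 and 0.16 (adjusted p = 0.199, 0.346 and 0.626). Klf6 was called without control replicate 2 (log2 change 0.89, adjusted p = 0.0456), with median scaling (adjusted p = 0.0267) and without background correction (adjusted p = 0.0372). Klf6 differed in the same direction as the feeder markers, and a link was not tested. A fit with the feeder median as a covariate gave Klf6 a log2 change of 0.38 (adjusted p = 0.828).

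**Figure D4:**
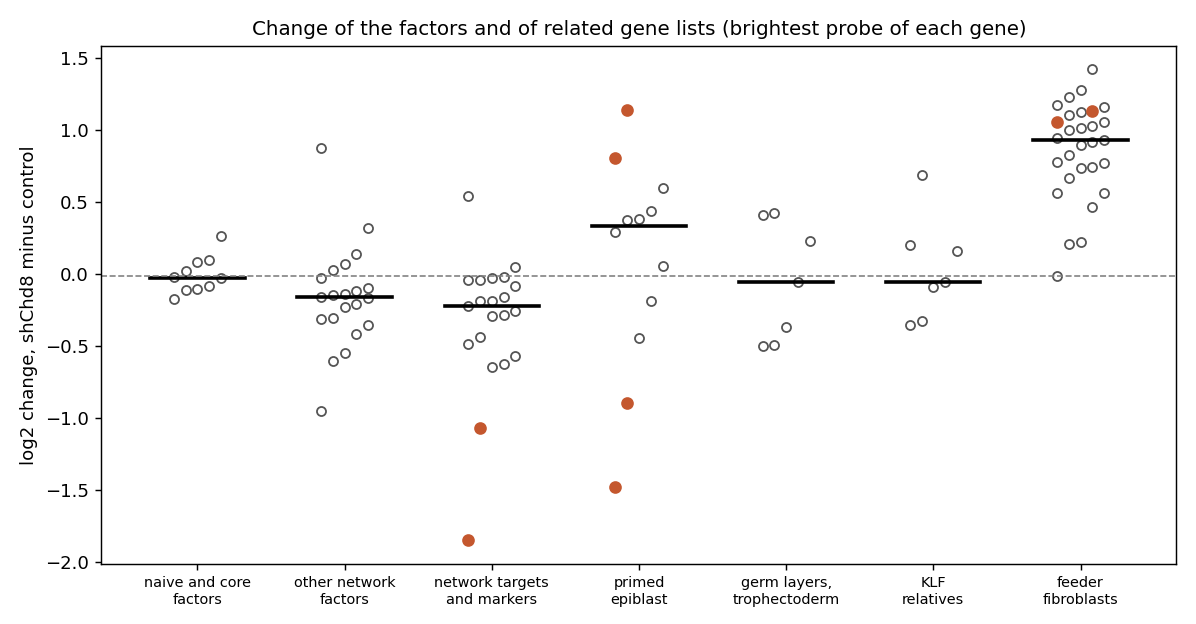
Log2 change (shChd8 minus control) on the brightest tested probe of each gene, by list. Filled orange points passed limma's adjusted p under 0.05 and open points did not, bars are list medians, and the dashed line is the median of all 9711 genes. The 10 factors lie between -0.18 and 0.27 around the line, and the feeder markers have a median of 0.93.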

How the data were processed

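The members and all gene lists were chosen with earlier results of these data known. Per the file headers, the authors' deposited non-normalized table holds linear probe intensity and a detection p-value for each array. The submitters' processing notes name GenomeStudio without a version. The deposited normalized table also holds linear intensity. Its columns kept the rank order of the non-normalized values and nearly equal medians (112.1 to 112.2), as quantile normalization gives, and it served as an alternative.

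Non-normalized intensity was background corrected and quantile normalized with neqc of limma 3.58.1 in R 4.3.3, using the detection p-values for the negative control distribution and an offset of 16, and put on the log2 scale. Tested probes (detection p under 0.01 on at least 3 arrays) were fitted with lmFit and eBayes, two-sided, without covariates, and p-values were Benjamini-Hochberg adjusted over all 16732. The number of arrays limits the precision. The path was tested on simulated data with planted changes and noise drawn separately for each value. Effects of slide position or feeder RNA were not simulated. Replicate numbers follow accession order.

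Of the 45281 probes, 34885 had 1 gene symbol, 18 several and 10378 none in the platform annotation. For 34807 the current symbol was taken from RefSeq through the gene identifier, whether or not it had changed. Probe positions and probe sequences were not used here. Levels of different probes were not compared. A gene is represented by its brightest tested probe. Named genes were all members, Chd8, up to 4 genes with the lowest p in each related list, and the 3 genes with profiles most like the members' median. Fgf15, Sox4, Zfp521 and Cldn6 are the 4 of the primed list. Fbln2 and Tagln were named after their values were seen, as the called feeder markers, and Thy1, Pdgfrb and S100a4 as those with the lowest log2 changes. Otx2 and Spred1 were named for their calls under alternatives. Alternatives covered background correction, normalization, the deposited values, the filter, the test, the probe of a gene, a feeder covariate and each array left out. For the related lists these alternatives were chosen after seeing the data.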

Additional observations from a re-analysis of the deposited data

How the results depend on the processing

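The count of called factors was 0 under every alternative run. Their median log2 change was between -0.13 and 0.11 in all alternatives except the feeder covariate (0.33, beside 0.01 for all probes). With median scaling it was 0.11, with 10 of 10 above 0, while the median of all probes was 0.18. The number of probes called overall was 1037 with normexp without controls, 1728 without background correction, 1731 with the deposited values, 1802 with median scaling (1590 higher and 212 lower), 1049 with the stricter filter (all 6 arrays), 311 without a filter, 17 with an unmoderated test, 1715 with an intensity trend and 0 with the feeder covariate, where 1418 had an unadjusted p under 0.05. It was 13 to 818 with 1 array left out, against 615 with all arrays, and the share of lower calls was 48.4% without control replicate 2 and 92.3% without shChd8 replicate 1, against 57.7%. The cause of these shifts was not tested. The filters also change how many probes are tested, and leaving out an array removes a sample.

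Of 160 fits of single factors, 24 turned the sign of a log2 change that was not called. With median scaling Sox2 was at 0.12, Nanog and Tfcp2l1 at 0.0897, Klf5 at 0.029, Zfp42 at 0.0442 and Tbx3 at 0.0033, and with the feeder covariate these were 0.40, 0.30, 0.22, 0.20, 0.20 and 0.37. With 1 array left out, the log2 change was -0.13 to 0.10 for Pou5f1, -0.31 to 0.0287 for Sox2, -0.21 to 0.0663 for Nanog, -0.23 to 0.0301 for Klf5 and -0.13 to 0.0546 for Tfcp2l1. No paired analysis was possible because the replicate numbers follow accession order and the labels give none.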
